A study of Homo sapiens with 9 samples.

Results

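The integrin chains, laminin chains and basement membrane linkers make up a set of 43 genes among the 19389 genes of the deposited expression table. They were chosen by symbol: every gene named as an integrin α chain, as one of the integrin β chains 1 to 8 or as a laminin α, β or γ chain, together with NID1, NID2, HSPG2, AGRN and DAG1. The rule reads no measured value, but the set was proposed with earlier results of these data known. Of the 43 genes, 32 reached a value of 1 in 3 or more of the 9 libraries and were tested, and the other 11 lay below that limit.

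Integrins are surface receptors built from one α and one β chain, and the pairing sets which matrix protein is bound: collagens, proteins with an RGD motif such as fibronectin, or laminins. Laminins are trimers of one α, one β and one γ chain that assemble into the sheet of a basement membrane, to which nidogens, perlecan and agrin are linked and to which dystroglycan anchors the cell. In cartilage such proteins form a pericellular layer around each chondrocyte, and integrins carry signals from that layer into the cell.

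The cells were SW1353, an established human chondrosarcoma line often used in place of chondrocytes. All libraries therefore share 1 tumour line and hold no primary cartilage. Of the 3 groups, one was untreated, one received IL-1β at 20 ng/mL for 20 hours, and one was pretreated with PBSL, a larval preparation from Protaetia brevitarsis seulensis, for 2 hours before the same IL-1β. The protocol lists PBSL at 0, 50, 100 and 200 µg/mL without saying which dose the sequenced cells received. Each group had 3 libraries, named untreated 1 to 3, IL-1β 1 to 3 and PBSL 1 to 3 here. A group with PBSL alone was not analysed here, so a difference between PBSL with IL-1β and IL-1β alone is measured only in stimulated cells. Nothing in the labels says that the libraries of a group came from separate cultures, so p-values measure the spread between these libraries, which may be technical.

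Values are the authors' normalized expression values, whose unit (FPKM or TPM) is not stated. They sum to between 523758 and 553196 in a library, which is a normalized total and not a read depth. The depth is unknown. Of 7 chondrocyte markers 5 reached 1 in some library, and their summed value ran from 18.5 to 20.4 in the untreated libraries, from 13.7 to 15.1 with IL-1β and from 12.4 to 14.2 with PBSL and IL-1β. COL2A1, type II collagen, did not pass 0.027 in any library, and SOX9, the chondrocyte lineage factor, lay between 8.003 and 12.8. In the group means ACAN, which encodes aggrecan, was 0.501 untreated, 1.43 with IL-1β and 1.799 with PBSL and IL-1β, while HAPLN1, which encodes a link protein, was 2.28, 0.518 and 0.369 and COL11A1, type XI collagen, 3.57, 2.54 and 1.55. Of 5 fibroblast and mesenchymal markers 4 reached 1, with summed values of 4216 to 4510.0, 4836 to 4895 and 4141 to 4594 in the 3 groups, most of it VIM. Of 7 leukocyte markers 3 reached 1 in some library: CSF1R (2.69 to 3.81), CD3E (0.61 to 1.33) and LYZ (0.523 to 1.06). CSF1R was higher in every IL-1β library (3.72 to 3.81) than in any untreated one (2.69 to 3.06). CD3E was lower there (0.61 to 0.816 against 1.07 to 1.33). PTPRC did not pass 0.393. None of 5 endothelial markers reached 1. Of 5 epithelial markers 3 reached 1: KRT18, KRT8 and KRT5, the last only in untreated 1 (3.24). The summed value of the 5 was 137 to 149.5 in the untreated libraries. It was 72.7 to 73.9 with IL-1β and 54.0 to 73.5 with PBSL and IL-1β. Most of it was KRT18 (group means 100.2, 54.95 and 47.85) and KRT8 (39.53, 18.03 and 15.02). EPCAM and CDH1 stayed below 0.5 and were also highest in untreated 1. In bulk libraries such as these, fewer cells of a type and less RNA per cell cannot be told apart.

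Promoter sequences of the set were searched because 2 transcription factors activated by IL-1β, NF-κB and AP-1, bind known short motifs. RefSeq promoter windows on GRCh38.p14, which run from 250 bases before to 50 after a transcription start, were found for 30 of the 43 genes (38 windows). The genes with no entry included AGRN, ITGA3, ITGA7, ITGA9, ITGAD, ITGAL, ITGAX, ITGB2, ITGB3, ITGB4, LAMA1 and LAMC3. Both strands of each window were searched for the NF-κB consensus and for the AP-1 heptamer TGAGTCA. Looser forms of both motifs were tried first and were replaced after their high share of matches had been seen. The NF-κB consensus was present in 7 of the 38 windows and in 5.91% of all 35116 RefSeq windows, and the AP-1 heptamer in 3 of the 38 and in 4.95% of all windows. Of the 7 windows, 2 are overlapping windows of LAMB3 that hold the same NF-κB matches, so the 7 windows stand for 6 genes. These 6 genes were DAG1, ITGA1, ITGA10, ITGA11, ITGA5 and LAMB3, and the 3 with an AP-1 match were ITGA5, LAMA3 and LAMB3. The printed sequences are those of 2 collagen receptor chains that moved in opposite directions with IL-1β (ITGA1 up, ITGA11 down), of a fibronectin receptor chain that rose (ITGA5), and of 2 chains of one laminin trimer, LAMB3, which rose and is given at 2 of its starts, and LAMA3, which did not pass the test. Each line runs 5′ to 3′ on the gene's strand, from 250 bases before the start to 10 after it, with motif matches in capitals.
ITGA1 (chr5:52787666-52787925, plus strand): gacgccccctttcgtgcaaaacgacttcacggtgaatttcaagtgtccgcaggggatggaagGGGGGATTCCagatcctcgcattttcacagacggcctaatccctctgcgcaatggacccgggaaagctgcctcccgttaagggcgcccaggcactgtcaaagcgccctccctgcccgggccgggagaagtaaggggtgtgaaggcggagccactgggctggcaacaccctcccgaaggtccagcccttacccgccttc
ITGA11 (chr15:68432154-68432413, minus strand): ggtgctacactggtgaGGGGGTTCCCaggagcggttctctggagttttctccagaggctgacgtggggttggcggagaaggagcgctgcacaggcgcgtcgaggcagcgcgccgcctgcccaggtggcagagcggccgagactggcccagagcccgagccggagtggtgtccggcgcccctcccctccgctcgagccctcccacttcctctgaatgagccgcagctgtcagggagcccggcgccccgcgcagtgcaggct
ITGA5 (chr12:54419257-54419516, minus strand): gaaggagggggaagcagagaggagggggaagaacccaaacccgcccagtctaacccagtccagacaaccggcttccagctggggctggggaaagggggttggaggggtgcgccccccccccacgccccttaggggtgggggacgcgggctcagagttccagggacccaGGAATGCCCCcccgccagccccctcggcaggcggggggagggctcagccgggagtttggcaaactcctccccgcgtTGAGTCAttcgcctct
LAMB3 (chr1:209652416-209652675, minus strand): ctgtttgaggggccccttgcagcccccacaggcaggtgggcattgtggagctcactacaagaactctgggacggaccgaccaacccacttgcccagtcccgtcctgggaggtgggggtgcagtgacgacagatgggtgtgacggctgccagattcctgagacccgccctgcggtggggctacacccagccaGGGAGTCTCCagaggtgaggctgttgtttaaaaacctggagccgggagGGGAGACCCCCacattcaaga
LAMB3 (chr1:209651365-209651624, minus strand): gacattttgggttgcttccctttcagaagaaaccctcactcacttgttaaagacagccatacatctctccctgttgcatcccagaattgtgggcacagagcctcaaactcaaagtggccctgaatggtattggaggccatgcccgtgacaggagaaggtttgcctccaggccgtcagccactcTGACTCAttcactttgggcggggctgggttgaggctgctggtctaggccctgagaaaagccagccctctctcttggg
LAMA3 (chr18:23872770-23873029, plus strand): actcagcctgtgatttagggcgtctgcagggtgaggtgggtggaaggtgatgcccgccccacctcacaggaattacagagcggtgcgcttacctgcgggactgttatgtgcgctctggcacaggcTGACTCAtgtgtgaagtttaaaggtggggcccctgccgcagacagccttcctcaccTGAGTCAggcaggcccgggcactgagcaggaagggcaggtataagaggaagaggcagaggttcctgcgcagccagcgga
Counted from the start, the NF-κB match begins at -188 in ITGA1, at -234 in ITGA11 and at -82 in ITGA5, where the capitals GGAATGCCCC hold it on the other strand. The AP-1 heptamer of ITGA5 begins at -6. The first LAMB3 window holds NF-κB matches at -59, -11 and -10, the last 2 overlapping on opposite strands, and its other window holds an AP-1 match at -67. LAMA3 has AP-1 matches at -125 and -69. All the printed genes were taken from those with a match, so their directions of change say nothing about the motifs. Among genes without a match in their windows, ITGA2, ITGAV, ITGB8 and LAMC1 rose with IL-1β and ITGA6, ITGB5 and NID2 fell. A match here describes letters in a window and does not show a bound site.

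IL-1β moved the set in both directions. Against untreated cells, 10 of the 32 tested genes were higher (among them ITGA1, ITGA2, ITGA5, ITGAV, ITGB3, ITGB8, LAMB3, LAMC1 and AGRN) and 10 were lower (ITGA3, ITGA6, ITGA10, ITGA11, ITGAE, ITGB4, ITGB5, LAMA1, NID2 and DAG1), by limma with Benjamini-Hochberg adjusted p under 0.05 over all 11924 tested genes. Among all tested genes 32.1% were called in this comparison, 16.2% higher and 16% lower. Of the 10 lower genes, ITGB4 reached 1 in the untreated libraries only and so passed the limit through the group where it is high. With PBSL added to IL-1β, 13 of the 32 were lower than with IL-1β alone and 1, ITGA6, was higher. The shares among all tested genes were 22.5% called, 11.5% higher and 11% lower. This background of 2684 called genes moves with single libraries, from 1304 without IL-1β 2 to 3910.0 without PBSL 1, and the number was 1451 without IL-1β 1, 1355 without IL-1β 3 and 1434 without PBSL 2. Against untreated cells, the PBSL libraries had 7 genes of the set higher and 13 lower, where all tested genes gave 41.6% called, 22.3% higher and 19.3% lower. The median log2 fold change of the 32 genes was 0.11 for IL-1β against untreated, where all tested genes had -0.005. It was -0.20 for PBSL with IL-1β against IL-1β, beside 0.008 for all tested genes, and -0.15 against untreated, beside 0.031. All log2 fold changes are on the log2(value + 1) scale and understate the change of genes with low values. These comparisons share libraries pairwise, so their values depend on each other. The values are set side by side below, and no correlation between comparisons was computed.

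**Figure D1:**
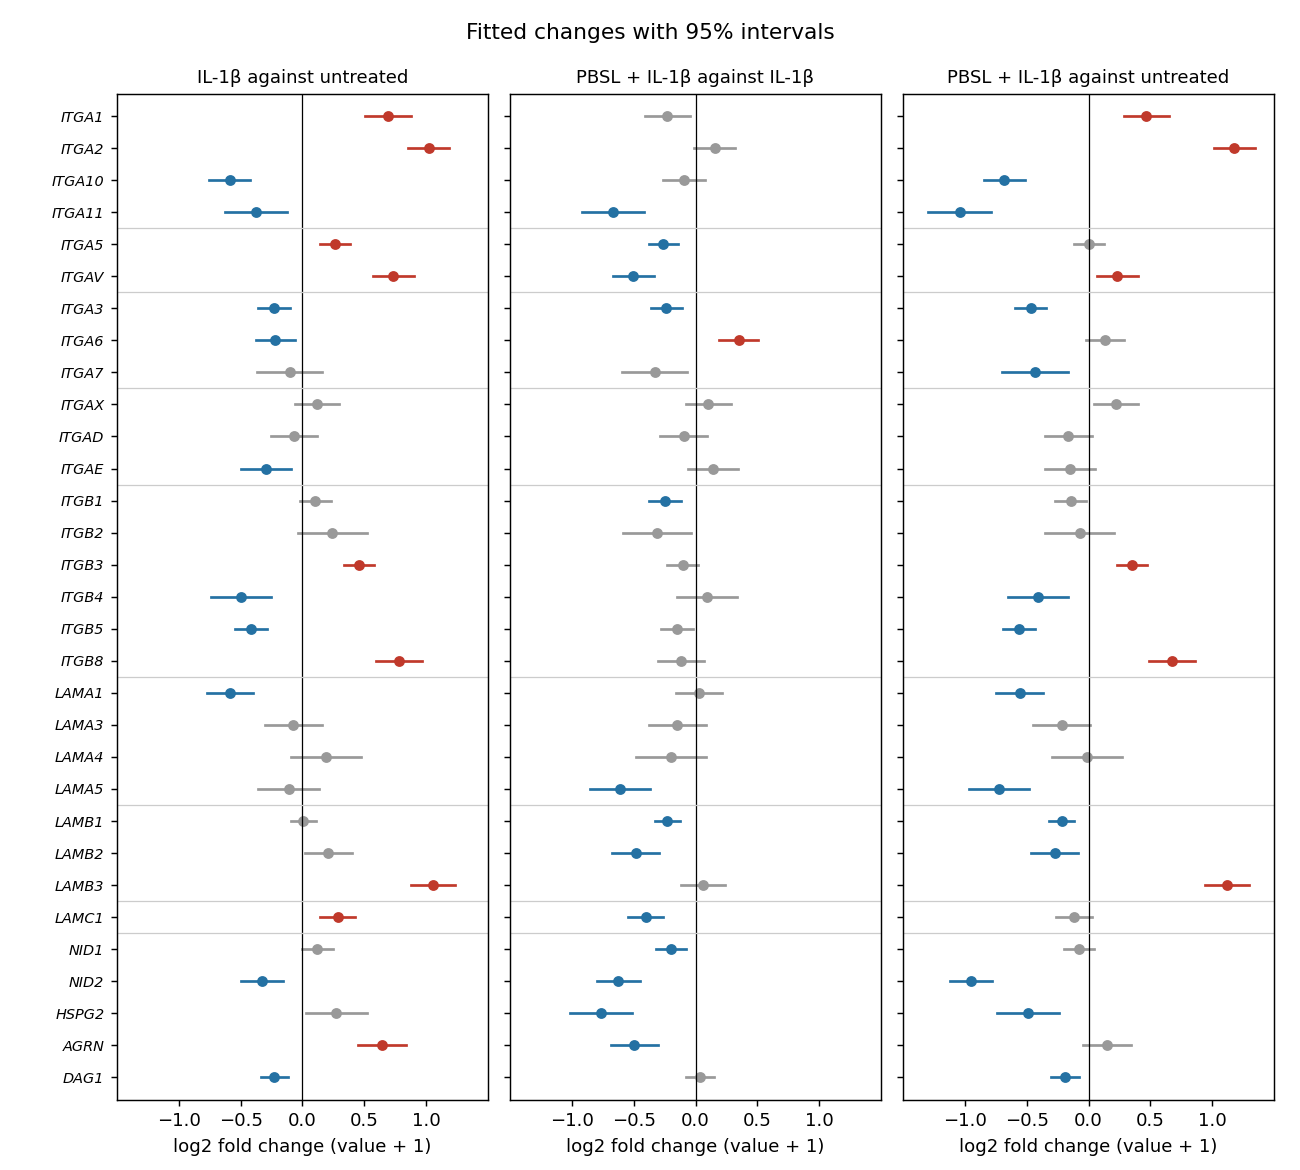
Fitted log2 fold changes on the log2(value + 1) scale (x axis) of 31 of the tested genes (y axis) in the 3 comparisons, with 95% intervals from the limma fit as bars. Red points were called higher, blue points lower and grey points were not called at an adjusted p of 0.05. In the left panel 9 points are red and 10 blue, and in the middle panel 1 is red and 13 are blue.

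The library values did not overlap between untreated and IL-1β cells for 24 of the 32 genes, 13 of them higher and 11 lower, where 52.8% of all tested genes showed no overlap, 25.7% higher and 27.1% lower. Between IL-1β and PBSL with IL-1β they did not overlap for 18, 1 higher and 17 lower, where the shares over all tested genes were 41.8%, 21.7% and 20.1%. Between PBSL with IL-1β and untreated they did not overlap for 21, 7 higher and 14 lower, beside 48.2%, 26% and 22.1%. Levels ran from 0.467 to 981. ITGB1, the β chain shared by most integrins, stood highest with 747 to 981 across the libraries, followed by the laminin receptor chain ITGA3 (331 to 503) and the fibronectin receptor chain ITGA5 (202 to 261). The lowest single value of a tested gene was that of ITGB4, the hemidesmosome β chain, in IL-1β 3.

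**Figure D2:**
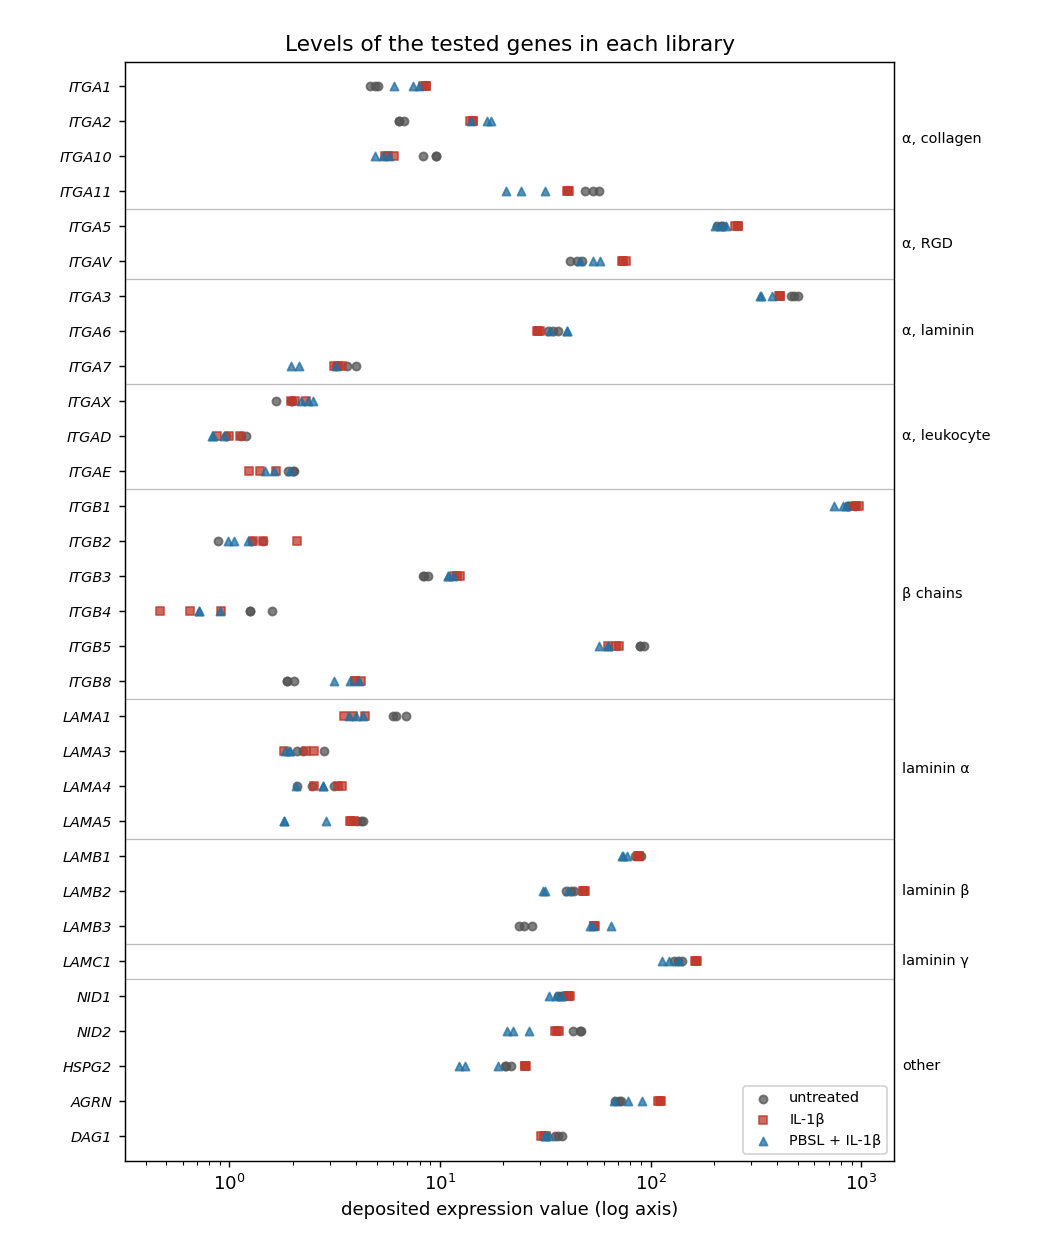
Deposited expression value (x axis, log scale) of 31 tested genes (y axis, grouped by role) in each of the 9 libraries. Circles are untreated, squares IL-1β and triangles PBSL with IL-1β. ITGB1 lies furthest right, at 747 to 981, and LAMB3 shows untreated libraries at 23.8 to 27.3, left of stimulated ones at 51.6 to 65.2.

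The collagen-binding α chains changed in opposite directions with IL-1β: ITGA1 and ITGA2 rose, and ITGA10 and ITGA11 fell. ITGA2, a receptor chain for fibrillar and other collagens, stood at 6.36, 6.39 and 6.78 in the untreated libraries, at 14.4, 13.9 and 14.4 with IL-1β and at 14.04, 16.6 and 17.5 with PBSL and IL-1β. All 6 stimulated libraries lay above all untreated ones. The mean went from 6.51 ± 0.234 to 14.2 ± 0.288 (SD, n = 3), and the log2 fold change for IL-1β was 1.02 (SE 0.0757, adjusted p = 9.48e-07). Adding PBSL to IL-1β gave 0.16 (SE 0.0757, adjusted p = 0.16), which was not called, although without the library PBSL 1 it was called at 0.24 (adjusted p = 0.0114). ITGA2 lies on chromosome 5, 52989326 to 53094779 of GRCh38 in GENCODE 29, next to ITGA1 at chromosome 5, 52787896 to 52959210. The exons of ITGA1 overlap those of PELO on the same strand, and how reads there were counted is not stated. ITGA1, the chain that prefers basement membrane collagen, had values of 4.64, 5.05 and 4.93 untreated, 8.59, 8.33 and 8.56 with IL-1β and 7.45, 6.08 and 7.92 with PBSL and IL-1β. Its untreated libraries were lowest, and the PBSL libraries lay between the other 2 groups without overlap. IL-1β changed it by 0.69 (SE 0.0835, adjusted p = 5.80e-05), and PBSL with IL-1β against IL-1β gave -0.23 (SE 0.0835, adjusted p = 0.0702), not called except when PBSL 3 was left out (-0.30, adjusted p = 0.0383).

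ITGA11, a collagen receptor chain of mesenchymal cells and the most abundant of the 4 here, was 48.9, 53.1 and 56.9 in untreated cells, 40.8, 40.04 and 40.7 with IL-1β and 31.6, 20.6 and 24.3 with PBSL and IL-1β. The 3 groups formed 3 separate steps downward, and PBSL 1 lay highest in the last of them. IL-1β gave -0.38 (SE 0.116, adjusted p = 0.0272). That call did not hold without untreated 2 (adjusted p = 0.0697), untreated 3 (0.0994), IL-1β 1 (0.0647), IL-1β 2 (0.0733) or IL-1β 3 (0.0664), or when no filter on low values was used (0.0674). The further fall with PBSL was -0.67 (SE 0.116, adjusted p = 0.00415), and PBSL with IL-1β against untreated was -1.04 (SE 0.116, adjusted p = 2.76e-05), both called in every alternative run. ITGA11 lies on chromosome 15, 68296533 to 68432162. ITGA10, a collagen receptor chain of chondrocytes, had 8.27, 9.55 and 9.61 in untreated cells, 6.07, 5.49 and 5.64 with IL-1β and 5.698, 4.91 and 5.33 with PBSL and IL-1β. Both stimulated groups lay below the untreated one and overlapped each other. Its changes were -0.59 (SE 0.0768, adjusted p = 0.000106) with IL-1β and -0.09 (SE 0.0768, adjusted p = 0.409) for PBSL with IL-1β against IL-1β.

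As a share of the summed values of these 4 α chains, ITGA11 went from 72.0% ± 0.598 (SD, n = 3) in untreated cells to 58.7% ± 0.344 with IL-1β and 46.9% ± 5.99 with PBSL and IL-1β. ITGA2 went from 8.88% ± 0.389 to 20.7% ± 0.139 and 30.0% ± 5.51, and ITGA1 from 6.65% ± 0.291 to 12.3% ± 0.0306 and 13.2% ± 1.01. ITGA10 took 12.4%, 8.31% and 9.86%. The summed value itself was 73.5 ± 5.03, 68.99 ± 1.08 and 54.0 ± 5.35 in the same order. Such shares compare levels between genes and rest on the values being scaled by transcript length. Over 401 genes with 1 annotated transcript that were seen in at most 3 libraries, the smallest value of a gene fell with its transcript length (Spearman's rho -0.843, across genes), while in a wider set of 827 low genes, the definition tried first, rho was -0.218.

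**Figure D3:**
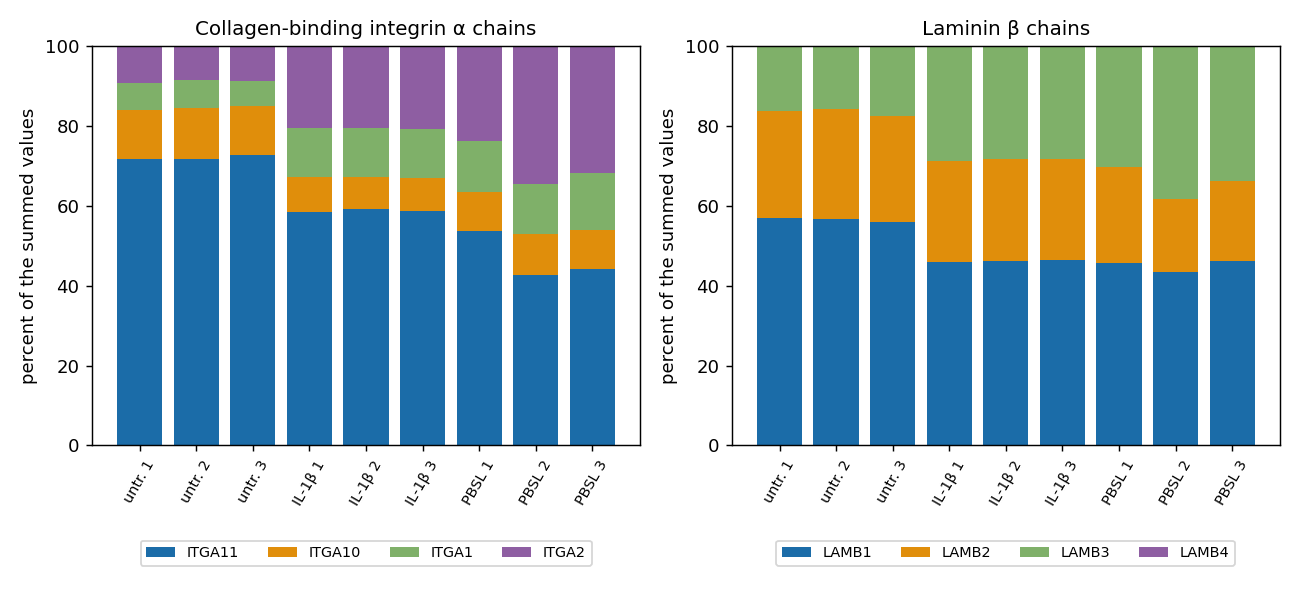
Percent of the summed deposited values (y axis) taken by each collagen-binding integrin α chain (left) and each laminin β chain (right) in each of the 9 libraries (x axis). ITGA11 shrinks from 72.0% to 46.9% and ITGA2 grows from 8.88% to 30.0% in the group means, and LAMB3 grows from 16.5% to 34.2%. LAMB4 is too low to be seen.

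Both tested RGD-binding α chains rose with IL-1β and were lower when PBSL was added. ITGAV, which pairs with several β chains to bind vitronectin and to release latent TGF-β, was 41.6, 46.99 and 44.8 in untreated cells, 72.8, 76.7 and 74.04 with IL-1β and 57.8, 46.3 and 53.3 with PBSL and IL-1β. The IL-1β libraries stood above all others, and PBSL 2 lay within the untreated range. The change was 0.73 (SE 0.0757, adjusted p = 1.60e-05) with IL-1β and -0.50 (SE 0.0757, adjusted p = 0.00312) for PBSL with IL-1β against IL-1β. PBSL with IL-1β against untreated gave 0.23 (SE 0.0757, adjusted p = 0.0291). This last call was lost without untreated 1 (adjusted p = 0.109), untreated 3 (0.0646), PBSL 1 (0.0856) or PBSL 3 (0.0683), with no filter (0.0531) and in the fit of those 2 groups (0.0634). ITGA5, the fibronectin receptor chain, had 221, 206 and 217 untreated, 253, 261 and 259 with IL-1β and 229, 215 and 202 with PBSL and IL-1β. The IL-1β libraries again lay above all others, while the untreated and PBSL libraries overlapped. IL-1β changed it by 0.26 (SE 0.0539, adjusted p = 0.00272) and PBSL with IL-1β against IL-1β by -0.26 (SE 0.0539, adjusted p = 0.00768). PBSL with IL-1β against untreated differed by 0.003 on the log2 scale, with a 95% interval of -0.11 to 0.12. ITGAV is on chromosome 2, 186590065 to 186680901, and ITGA5 on chromosome 12, 54395261 to 54419460.

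The β chains that pair with ITGAV moved apart. ITGB3, the β chain of the vitronectin receptor, was 8.43, 8.74 and 8.33 in untreated cells, 11.7, 12.4 and 12 with IL-1β and 11.6, 10.96 and 10.9 with PBSL and IL-1β. Every stimulated library lay above every untreated one. ITGB8, a β chain that activates latent TGF-β, was 1.87, 1.87 and 2.02 in untreated cells, 3.93, 3.96 and 4.199 with IL-1β and 3.76, 3.13 and 4.11 with PBSL and IL-1β. Its means were 1.92 ± 0.0881, 4.03 ± 0.147 and 3.67 ± 0.499 (SD, n = 3), so both stimulated groups lay above the untreated one and overlapped each other. ITGB5, another partner of ITGAV, was 88.8, 89.3 and 93.4 untreated, 71.1, 68.6 and 62.98 with IL-1β and 62.8, 62.6 and 57.1 with PBSL and IL-1β, with both stimulated groups below all untreated libraries. IL-1β changed ITGB3 by 0.46 (SE 0.0568, adjusted p = 7.27e-05), ITGB8 by 0.79 (SE 0.085, adjusted p = 2.42e-05) and ITGB5 by -0.42 (SE 0.0592, adjusted p = 0.000203). None of these 3 chains was called for PBSL with IL-1β against IL-1β, where the values were -0.10 (adjusted p = 0.202), -0.11 (adjusted p = 0.359) and -0.15 (adjusted p = 0.093).

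ITGB1, the common partner of the collagen, fibronectin and laminin receptor α chains, was 864, 934 and 867 in untreated cells, 933, 948 and 981 with IL-1β and 845, 747 and 822 with PBSL and IL-1β. The untreated and IL-1β groups overlapped, and all 3 PBSL libraries lay below all others. The IL-1β comparison gave 0.10 (SE 0.0579, adjusted p = 0.199), which was not called, and PBSL with IL-1β against IL-1β gave -0.25 (SE 0.0579, adjusted p = 0.0125), which missed the threshold without IL-1β 3 (adjusted p = 0.0583). Against untreated the PBSL group gave -0.14 (adjusted p = 0.0659), called without PBSL 1 at -0.18 (0.0263). ITGB1 made up 89.5%, 91.7% and 91.2% of the summed β chain values in the 3 groups. It lies on chromosome 10, 32900319 to 33005792.

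The laminin-binding α chains ITGA3 and ITGA6 both fell with IL-1β and separated when PBSL was added. ITGA3, a receptor chain for several laminins, was 479, 463 and 503 in untreated cells, 412, 413 and 406 with IL-1β and 379, 331 and 336 with PBSL and IL-1β, in 3 steps downward with no overlap. IL-1β gave -0.23 (SE 0.0581, adjusted p = 0.0095) and PBSL with IL-1β against IL-1β gave -0.24 (SE 0.0581, adjusted p = 0.0152). The second of these was not called without IL-1β 1 (adjusted p = 0.0548), IL-1β 2 (0.059) or PBSL 2 (0.0564). ITGA6, which pairs with ITGB1 or with ITGB4, was 34.3, 36.2 and 32.6 untreated, 29.97, 29.04 and 29.2 with IL-1β and 33.4, 40.2 and 40.02 with PBSL and IL-1β. The IL-1β libraries lay below all others, and PBSL 1 lay inside the untreated range while PBSL 2 and 3 lay above it. ITGA6 was the only 1 of the 32 genes called higher for PBSL with IL-1β against IL-1β, at 0.35 (SE 0.0717, adjusted p = 0.00722), a call that held in every alternative run. Its fall with IL-1β alone was -0.22 (SE 0.0717, adjusted p = 0.0362) and was lost without untreated 1 (adjusted p = 0.0855), untreated 2 (0.126), IL-1β 1 (0.0718), IL-1β 2 (0.102) or IL-1β 3 (0.0999), with no filter (0.0584) and with no variance trend (0.0505). Without PBSL 1, ITGA6 was also called above untreated, at 0.22 (0.00868). ITGA7, a laminin receptor chain of muscle, was 3.21, 3.996 and 3.61 in untreated cells, 3.14, 3.43 and 3.27 with IL-1β and 3.22, 2.14 and 1.97 with PBSL and IL-1β, with PBSL 1 close to the IL-1β libraries and the other 2 PBSL libraries below all others. It was not called with IL-1β, at -0.10 (adjusted p = 0.554), nor for PBSL with IL-1β against IL-1β, at -0.33 (adjusted p = 0.0679), but without PBSL 1 the latter was called at -0.49 (0.00206). Against untreated, PBSL with IL-1β gave -0.43 (adjusted p = 0.0133), lost without untreated 2 (0.0562), PBSL 2 (0.0514) or PBSL 3 (0.0537). ITGA3 is on chromosome 17, 50055968 to 50090481, and ITGA6 on chromosome 2, 172427354 to 172506282.

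ITGB4, which pairs with ITGA6 in hemidesmosomes, was low at 1.59, 1.25 and 1.25 untreated, 0.651, 0.917 and 0.467 with IL-1β and 0.714, 0.905 and 0.715 with PBSL and IL-1β. All stimulated libraries lay below all untreated ones, and below 1. ITGB4 thus passed the limit of 1 only through the untreated group, and its calls in the filtered table depend on that limit. In the fit with no filter its log2 fold change was -0.50 (adjusted p = 0.00816) with IL-1β and -0.41 (adjusted p = 0.0171) for PBSL with IL-1β against untreated. Without any 1 of the 3 untreated libraries ITGB4 did not reach the limit and was not tested. Without untreated 2, the calls of ITGA6, ITGA11 and ITGAE were lost as well, so that 6 and not 10 genes of the set were called lower with IL-1β. Over all tested genes, leaving out 1 library at a time gave 1387 to 2146 called lower, beside 1903 with all libraries.

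The α and β chains known from leukocytes were at or near the limit of testing. ITGAE, the partner of ITGB7 on mucosal lymphocytes, was 2.03, 2.004 and 1.89 untreated, 1.67, 1.401 and 1.23 with IL-1β and 1.48, 1.93 and 1.63 with PBSL and IL-1β, with the IL-1β libraries below the untreated ones. Its change with IL-1β was -0.29 (SE 0.0923, adjusted p = 0.0295), a call lost without untreated 1 (adjusted p = 0.0851), untreated 2 (0.074), untreated 3 (0.0553), IL-1β 2 (0.0821) or IL-1β 3 (0.125). ITGAE shares exon bases with HASPIN on the opposite strand. ITGAX, a complement receptor chain of myeloid cells, was 1.66, 1.96 and 1.98 untreated, 2.32, 2.06 and 1.95 with IL-1β and 2.35, 2.18 and 2.48 with PBSL and IL-1β. ITGAD, a chain of macrophages, was 0.959, 1.14 and 1.195, then 0.998, 1.12 and 0.877, then 0.831, 0.839 and 0.94 in the same order. ITGB2, the partner of both, was 0.884, 1.44 and 1.29 untreated, 2.09, 1.3 and 1.45 with IL-1β, the first of these the highest of all 9 libraries, and 1.23, 0.984 and 1.05 with PBSL and IL-1β. None of these 3 genes was called in any of the 3 comparisons, and ITGAX came closest for PBSL with IL-1β against untreated, at 0.22 (adjusted p = 0.0504), and was called there with a pseudocount of 5 (0.0476), with no variance trend (0.0276) and without PBSL 2 (0.0484).

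The 11 genes below the filter did not reach 1 in any library, and their highest values were 0.471 for ITGA8, 0.333 for ITGA2B, 0.907 for ITGA4, 0.133 for ITGA9, 0.05 for ITGAL, 0.092 for ITGAM, 0.179 for ITGB6, 0.634 for ITGB7, 0.524 for LAMA2, 0.111 for LAMB4 and 0.521 for LAMC3. ITGAM was listed at 0 in untreated 3. In a fit with no filter, 2 of them were called with IL-1β. ITGA4, which binds VCAM and fibronectin, had 0.78, 0.907 and 0.865 in untreated cells against 0.347, 0.204 and 0.226 with IL-1β (-0.56, adjusted p = 0.000173). ITGA8, a receptor chain for nephronectin, had 0.155, 0.135 and 0.188 against 0.408, 0.471 and 0.403 (0.30, 0.000181) and 0.289, 0.299 and 0.292 with PBSL and IL-1β, where it was lower than with IL-1β alone (-0.14, 0.0254). For PBSL with IL-1β against untreated, the same fit called ITGA4 (-0.55, adjusted p = 0.000168), ITGA8 (0.16, 0.00498) and LAMA2 (-0.20, 0.0133). At such levels the numbers of reads behind a value are not known.

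Among the laminin chains, LAMB3 and LAMC1 rose with IL-1β and LAMA1 fell, and LAMA5, LAMB1, LAMB2 and LAMC1 were lower with PBSL and IL-1β than with IL-1β alone. LAMB3, whose 2 promoter windows are printed above, was 23.8, 25.2 and 27.3 in untreated cells, 54.5, 53.8 and 53.6 with IL-1β and 51.6, 65.2 and 53.4 with PBSL and IL-1β. All stimulated libraries lay above all untreated ones, and the spread among the PBSL libraries was wide, with PBSL 2 highest. IL-1β changed LAMB3 by 1.06 (SE 0.081, adjusted p = 1.27e-06) on the log2 scale, and PBSL with IL-1β against IL-1β gave 0.06 (SE 0.081, adjusted p = 0.607), with a 95% interval of -0.11 to 0.24. LAMA3, an α chain that forms a trimer with LAMB3 in epithelia, was 2.09, 2.82 and 2.23 in untreated cells, 2.3, 2.53 and 1.81 with IL-1β and 1.83, 1.93 and 1.91 with PBSL and IL-1β, and the untreated and IL-1β libraries overlapped. Its log2 fold change with IL-1β was -0.07 (adjusted p = 0.632), with a 95% interval of -0.30 to 0.15. The summed epithelial markers given above, mostly KRT18 and KRT8, were lower in the stimulated libraries, and their part in these results was not tested. LAMB3 is on chromosome 1, 209614870 to 209652466, and LAMA3 on chromosome 18, 23689443 to 23956222.

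LAMC1, the γ chain of most laminins and the dominant one here with 98.8%, 98.3% and 97.5% of the summed γ chain values, was 134, 141 and 129 in untreated cells, 164, 167 and 162 with IL-1β and 137, 113 and 123 with PBSL and IL-1β. The IL-1β libraries stood above all others, and the PBSL and untreated libraries overlapped. IL-1β gave 0.28 (SE 0.0657, adjusted p = 0.00566) and PBSL with IL-1β against IL-1β gave -0.40 (SE 0.0657, adjusted p = 0.00375). Against untreated the PBSL group gave -0.12 (adjusted p = 0.17), which was called without PBSL 1 at -0.19 (0.0149). LAMB2, a β chain of neuromuscular and kidney laminins, was 39.5, 43.4 and 41.7 untreated, 47.6, 48.8 and 48.1 with IL-1β and 40.6, 31 and 31.6 with PBSL and IL-1β. The IL-1β libraries were above the other groups, and PBSL 1 lay within the untreated range while PBSL 2 and 3 lay below it. Adding PBSL to IL-1β changed it by -0.48 (SE 0.0869, adjusted p = 0.0044). IL-1β alone gave 0.21 (adjusted p = 0.0885), which was called only in the fit of those 2 groups (0.00326) and without PBSL 1 (0.00544). Against untreated, PBSL with IL-1β gave -0.28 (adjusted p = 0.0247), lost without untreated 2 (0.0855), untreated 3 (0.0652), PBSL 2 (0.0934) or PBSL 3 (0.0843), with no filter (0.0518) and in the fit of those 2 groups (0.0535). LAMB1, the widely expressed β chain, was 84.3, 90.1 and 87.3 in untreated cells, 86.8, 87.7 and 88.5 with IL-1β and 77.6, 73.7 and 73.1 with PBSL and IL-1β, so that only the PBSL libraries stood apart. It changed by -0.23 (SE 0.0476, adjusted p = 0.0079) for PBSL with IL-1β against IL-1β, and IL-1β alone gave 0.01 with a 95% interval of -0.10 to 0.11. Among the β chains, LAMB3 went from 16.5% ± 0.836 of the summed values to 28.4% ± 0.363 and 34.2% ± 3.996 (SD, n = 3), LAMB1 from 56.5% to 46.2% and 45.1%, and LAMB2 from 26.9% to 25.4% and 20.7%. LAMC1 is on chromosome 1, 183023460 to 183145592, LAMB2 on chromosome 3, 49121114 to 49133118 and LAMB1 on chromosome 7, 107923799 to 108003255.

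The laminin α chains were low beside the β and γ chains, with summed values of 16.0 ± 1.28, 13.3 ± 0.449 and 10.9 ± 0.597 (SD, n = 3) in the 3 groups, against 136 ± 5.63, 167 ± 2.54 and 127.5 ± 11.6 for the γ chains. LAMA1, the α chain of embryonic basement membranes, was 5.99, 6.21 and 6.91 in untreated cells, 3.84, 3.5 and 4.42 with IL-1β and 3.71, 4.31 and 4.01 with PBSL and IL-1β. Both stimulated groups lay below the untreated one, and IL-1β changed it by -0.58 (SE 0.0863, adjusted p = 0.000272). LAMA5, an α chain of many adult basement membranes, was 4.02, 4.21 and 4.32 untreated, 3.901, 3.72 and 3.76 with IL-1β and 2.89, 1.82 and 1.81 with PBSL and IL-1β. PBSL 2 and 3 lay at the bottom and PBSL 1 between them and the IL-1β libraries. Adding PBSL to IL-1β changed it by -0.61 (SE 0.112, adjusted p = 0.00477), while IL-1β alone gave -0.11 (adjusted p = 0.48). LAMA4, an α chain of vessels and mesenchyme, was 2.103, 2.48 and 3.15 in untreated cells, 3.29, 3.41 and 2.51 with IL-1β and 2.78, 2.06 and 2.78 with PBSL and IL-1β and was not called in any comparison. LAMA1 is on chromosome 18, 6941744 to 7117814, and LAMA5 on chromosome 20, 62307955 to 62367312, where its exons share bases with ADRM1 on the opposite strand. HSPG2, ITGA7, LAMB1 and NID2 also share exon bases with a gene of the expression table on the opposite strand. Other tested genes, among them ITGA5, ITGA6, ITGAV and ITGB1, share exon bases with opposite-strand genes that the expression table does not hold. The library kit keeps strand, but whether counting used it is not stated, so reads of such pairs cannot be told apart here.

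Of the 5 linker and anchor genes, AGRN rose and NID2 and DAG1 fell with IL-1β, and HSPG2, AGRN, NID1 and NID2 were lower with PBSL and IL-1β than with IL-1β alone. HSPG2, which encodes perlecan, a heparan sulfate proteoglycan of basement membranes and of the chondrocyte pericellular matrix, was 20.4, 20.5 and 21.6 in untreated cells, 25.4, 25.6 and 25.3 with IL-1β and 18.8, 12.4 and 13.2 with PBSL and IL-1β. The 3 groups did not overlap, with IL-1β highest and PBSL lowest, and PBSL 1 stood above PBSL 2 and 3. Adding PBSL to IL-1β gave -0.77 (SE 0.114, adjusted p = 0.00312). IL-1β alone gave 0.28 (adjusted p = 0.0894), which was called only in the fit of those 2 groups (0.000581) and without PBSL 1 (0.00138). AGRN, which encodes agrin, another heparan sulfate proteoglycan, was 67.7, 70.96 and 72.3 untreated, 111, 112 and 108 with IL-1β and 90.9, 78.3 and 66.7 with PBSL and IL-1β. The IL-1β libraries lay above all others, and PBSL 3 lay below the untreated libraries while PBSL 1 and 2 lay above them. IL-1β gave 0.65 (SE 0.0875, adjusted p = 0.000145) and PBSL with IL-1β against IL-1β gave -0.50 (SE 0.0875, adjusted p = 0.00427). Against untreated, PBSL with IL-1β gave 0.15 (adjusted p = 0.194), called without PBSL 3 at 0.26 (0.00898).

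The nidogens, which bridge laminin and collagen networks, were both lower with PBSL and IL-1β than with IL-1β alone, and of them NID2 was called with IL-1β. NID2 was 42.8, 46.5 and 46.9 in untreated cells, 35.03, 36.04 and 36.8 with IL-1β and 26.5, 20.7 and 22.1 with PBSL and IL-1β, in 3 steps downward without overlap. IL-1β gave -0.33 (SE 0.0789, adjusted p = 0.00743), PBSL with IL-1β against IL-1β gave -0.62 (SE 0.0789, adjusted p = 0.00261), and PBSL with IL-1β against untreated gave -0.95 (SE 0.0789, adjusted p = 2.64e-06). NID1 was 36.5, 38.3 and 37.4 in untreated cells, 40.4, 41.3 and 40.5 with IL-1β and 37.8, 32.9 and 35.5 with PBSL and IL-1β, with IL-1β highest and the other 2 groups overlapping. Its change with IL-1β was 0.12 (adjusted p = 0.125), called only in the fit of those 2 groups (0.0276). The PBSL group against IL-1β alone gave -0.20 (SE 0.0563, adjusted p = 0.0263), which missed the threshold without IL-1β 1 (0.0737), IL-1β 2 (0.0965), IL-1β 3 (0.0776) or PBSL 2 (0.0799) and in the fit of those 2 groups (0.0537). Whether the 2 nidogens differ in their change was not tested. DAG1, which encodes both subunits of dystroglycan, was 35.3, 36.5 and 37.9 untreated, 31.9, 31.1 and 30.2 with IL-1β and 32.8, 31.4 and 31.6 with PBSL and IL-1β, with both stimulated groups below all untreated libraries. IL-1β changed it by -0.23 (SE 0.0507, adjusted p = 0.0046), and PBSL with IL-1β against IL-1β gave 0.04, with a 95% interval of -0.07 to 0.15. HSPG2 is on chromosome 1, 21822245 to 21937297, AGRN on chromosome 1, 1020123 to 1056118, NID2 on chromosome 14, 52004803 to 52069228, NID1 on chromosome 1, 235975830 to 236065162 and DAG1 on chromosome 3, 49468703 to 49535618.

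**Figure D4:**
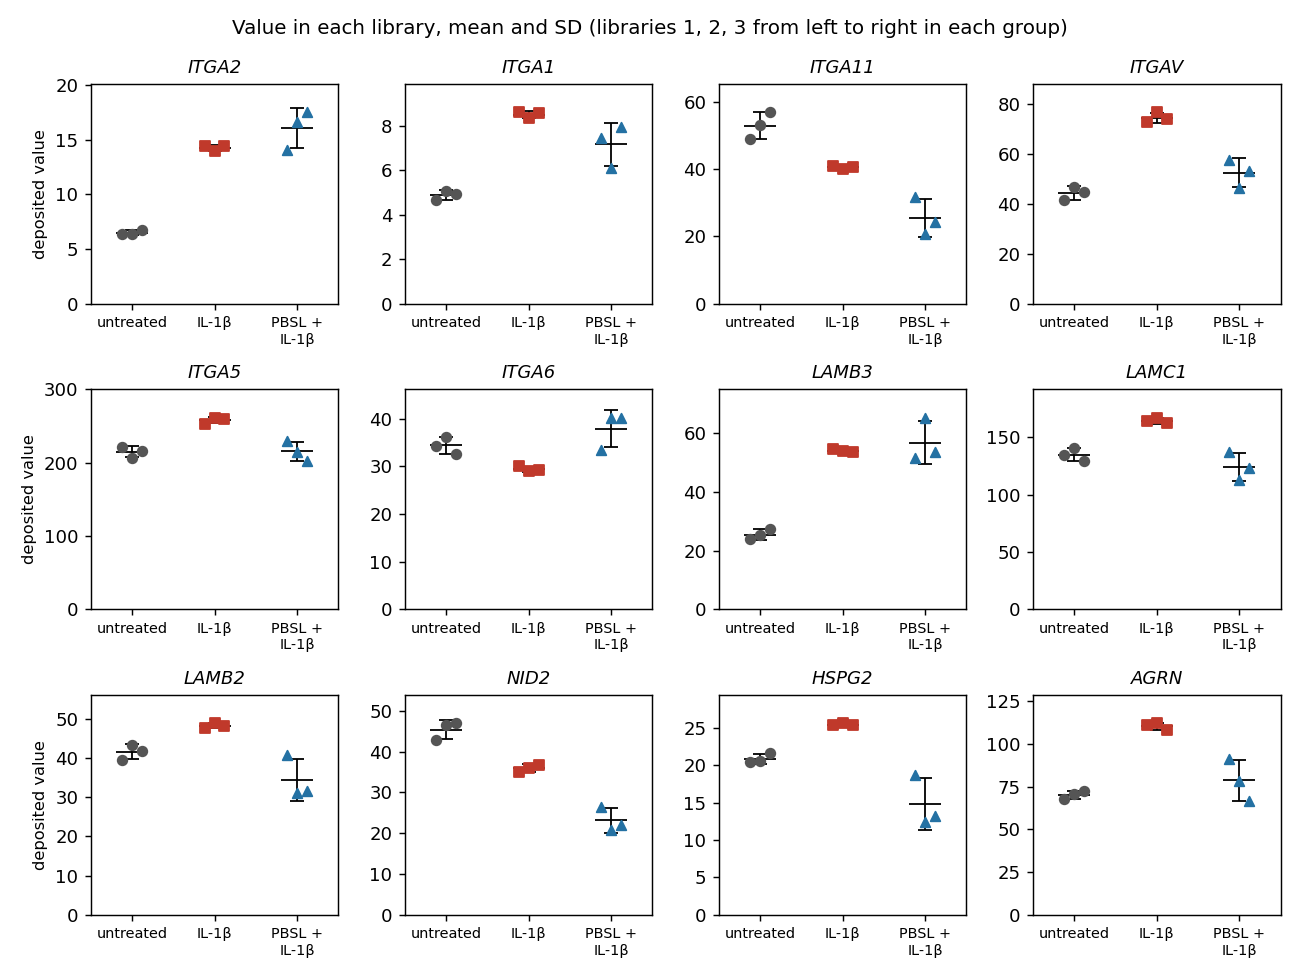
Deposited value (y axis, starting at 0) of 12 genes of the set in each library, by group (x axis), with the group mean and SD (n = 3) as lines. For HSPG2 the PBSL libraries lie below all IL-1β libraries at 12.4 to 18.8 against 25.3 to 25.6, and ITGA6 shows the opposite order, with 33.4 to 40.2 against 29.04 to 29.97.

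In all 13 genes called lower for PBSL with IL-1β against IL-1β, every PBSL library lay below every IL-1β library, and PBSL 1 was the highest of the 3 PBSL libraries. PBSL 2 was the lowest in 9 of the 13 and PBSL 3 in 4. The 13 genes were picked as lower from these same libraries, so their lack of overlap is no separate support. How often PBSL 1 was highest among all genes called lower was not counted, so its place is not shown to be particular to the set. Of the 5 fibroblast and mesenchymal markers, COL1A1 and PDGFRB showed the same order of groups. COL1A1 was 1549 to 1579 in the IL-1β and 845 to 1171 in the PBSL libraries, and PDGFRB 19.0 to 19.7 and 10.9 to 15.1. The other markers did not show it. VIM overlapped, with a higher mean in the PBSL group (3270 and 3328). PDGFRA also overlapped (5.32 to 6.62 and 4.53 to 5.58), and THY1 was 0 in both groups. The part of these markers in the results was not tested. In the IL-1β comparison with untreated cells, 4 of these 13 genes had been called higher (AGRN, ITGA5, ITGAV and LAMC1), 3 lower (ITGA3, ITGA11 and NID2), and 6 were not called (HSPG2, ITGB1, LAMA5, LAMB1, LAMB2 and NID1). The genes that IL-1β raised and that were not called when PBSL was added included ITGA1, ITGA2, ITGB3, ITGB8 and LAMB3. A missed threshold does not show that these were alike in both groups, and the 95% intervals for PBSL with IL-1β against IL-1β were -0.41 to -0.04 for ITGA1 and -0.30 to 0.07 for ITGB8.

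Other genes of the same systems were counted in 5 lists with 152 genes in the table, beside the shares of all tested genes given above. Among 36 tested adaptors that couple integrins to actin, 4 were higher and 7 lower with IL-1β. ACTN4, an actin crosslinker, went from 314 to 209.8 in the group means (log2 fold change -0.58, adjusted p = 1.29e-05), RAP1B, a small GTPase that activates integrins, from 138 to 96.8 (log2 fold change -0.51, adjusted p = 8.55e-05), and TNS3, a tensin, from 43.8 to 54.8 (log2 fold change 0.32, adjusted p = 0.001). When PBSL was added, 1 adaptor was higher and 10 lower than with IL-1β alone, among them TNS1, from 26.5 to 18.6 (log2 fold change -0.48, adjusted p = 0.00261), and the filamin FLNA, from 498 to 379 (log2 fold change -0.40, adjusted p = 0.0072). Against untreated, 3 were higher and 16 lower. Of 26 tested genes of the dystrophin complex and of dystroglycan glycosylation, 5 were higher and 7 lower with IL-1β. DTNA, a dystrobrevin, went from 3.79 to 6.18 (log2 fold change 0.59, adjusted p = 0.00105). Of these 26, none was higher and 1, the mannosyltransferase gene POMT1, was lower for PBSL with IL-1β against IL-1β, from 8.83 to 7.498 (log2 fold change -0.21, adjusted p = 0.0355), which is 3.85% of the list beside 22.5% of all tested genes, a background that moves with single libraries as given above. At an unadjusted p under 0.05 in limma, 2 of the 26 were higher. Against untreated, 4 were higher and 8 lower.

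Of 17 tested collagens and proteins linked to basement membranes, 6 were higher and 6 lower with IL-1β. COL7A1, the anchoring fibril collagen, went from 19.8 ± 3.095 to 73.4 ± 3.44 (SD, n = 3), a log2 fold change of 1.85 with an adjusted p of 1.25e-07. NTN4, a laminin-related netrin, went from 40.01 to 25.4 (log2 fold change -0.64, adjusted p = 0.000102), and COL6A2 from 113 to 161 (log2 fold change 0.51, adjusted p = 0.000384). When PBSL was added, 1 was higher and 11 were lower than with IL-1β alone, including MATN2, from 28.6 to 19.8 (log2 fold change -0.52, adjusted p = 0.00312), SPARC, a collagen-binding matricellular protein gene, from 747 to 574 (log2 fold change -0.38, adjusted p = 0.00312), and FBLN2, from 30.2 to 19.3 (log2 fold change -0.64, adjusted p = 0.00322). Against untreated, 4 were higher and 9 lower. Of 20 tested tetraspanins, syndecans and other laminin receptors, 5 were higher and 4 lower with IL-1β. The syndecan SDC4 went from 44.9 to 129 (log2 fold change 1.501, adjusted p = 3.10e-10), the tetraspanin CD82 from 53.2 to 167 (log2 fold change 1.64, adjusted p = 1.91e-08) and CD47, an integrin-associated protein, from 28.2 to 54.5 (log2 fold change 0.93, adjusted p = 9.01e-07). When PBSL was added, 1 was higher and 8 were lower, among them the tetraspanin CD81, from 384 to 302 (log2 fold change -0.35, adjusted p = 0.00516), SDC3 (log2 fold change -0.33, adjusted p = 0.00977) and MCAM (log2 fold change -0.45, adjusted p = 0.0136), and against untreated 4 were higher and 9 lower.

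Of 23 tested integrin ligands, 8 were higher and 5 lower with IL-1β. ICAM1, the ligand of ITGB2 integrins, went from 0.336 to 14.7 in the group means (log2 fold change 3.56, adjusted p = 2.36e-10), FN1, the fibronectin gene whose product binds ITGA5 and ITGAV integrins, from 763 to 1337 (log2 fold change 0.81, adjusted p = 5.25e-07), and CTGF, a matricellular ligand, from 58.9 to 16.3 (log2 fold change -1.79, adjusted p = 1.91e-08). When PBSL was added, 1 ligand was higher, NOV, from 4.21 to 7.15 (log2 fold change 0.64, adjusted p = 0.00261), and 14 were lower, including FN1, from 1337 to 931 (log2 fold change -0.52, adjusted p = 0.00127), and COL1A2, a chain of the collagen that ITGA2 and ITGA11 integrins bind, from 787 to 462 (log2 fold change -0.79, adjusted p = 0.00264). Against untreated, 4 ligands were higher and 14 lower. The median log2 fold change for PBSL with IL-1β against IL-1β was -0.35 over the ligands, -0.22 over the basement membrane collagens and linked proteins, -0.18 over the tetraspanins and laminin receptors, -0.12 over the adaptors and -0.056 over the dystrophin complex, beside 0.008 over all tested genes.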

How the data were processed

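SW1353 mRNA libraries (MGIEasy directional kit, per the labels' protocols) in 3 groups of 3 were analysed. The table held 19389 genes by 9 libraries as signal values deposited after normalization by the authors. Whether they are FPKM or TPM is not given in the sources used here. The submitters' processing notes name hg38, Trim Galore, STAR and HTSeq, with no versions, roles or settings.

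The 11924 genes that reached a value of 1 in 3 or more libraries were tested on log2(value + 1) with limma 3.58.1 (R 4.3.3), with a variance trend on the mean, all 9 libraries in 1 fit with group means, leaving 6 residual degrees of freedom. Tests were two-sided. P-values were adjusted by Benjamini-Hochberg over all tested genes in each of 3 comparisons and called under 0.05. An exact permutation test of 3 against 3 libraries cannot go below 0.1 and was not used. The fit was also run on simulated data with independent noise in each gene and shifts added to some genes. No deviation shared by a whole library was simulated, so that run checks the code and not the calls reported here.

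The genes of the set and the 5 companion lists were chosen with earlier results of these data known. TINAGL1 of the basement membrane list matched no row. Genes of the set are named by role, and from each list up to 3 called genes with the smallest p in a comparison could be named. Some genes are not reported here but are included in the counts. The transcript-length check was redefined and the motifs tightened after a first look. Positions come from GENCODE 29 (GRCh38). Alternatives were pseudocounts of 0.1 and 5, no filter, a minimum of 5, no variance trend, median-ratio rescaling, fits of 2 groups, a replicate block, each library left out and, added after seeing the data, equal library totals.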

Additional observations from a re-analysis of the deposited data

How the results depend on the processing

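For the 32 tested genes in 3 comparisons, 18 alternative settings gave 1674 values. Of these 1612 stayed on the same side of the threshold, 46 lost a call, 16 gained one and none of the called values changed sign. A gene that fell below the limit in a setting gave no value there, and a call lost that way is not counted. With a minimum of 5 only 21 of the 32 genes were tested, and ITGB4 was not tested when any 1 untreated library was left out. Among the values obtained, calls changed in 20 of the 96 gene comparisons, which are named with the results where a library or setting changed them. Leaving out 1 library at a time gave 6 to 10 genes of the set called lower with IL-1β (6 without untreated 2, where 30 were tested). Over all genes it gave 1387 to 2146 called lower there, beside 1903 with all libraries. It gave 1 or 2 genes of the set called higher for PBSL with IL-1β against IL-1β (2 without PBSL 1). In that last comparison, over all genes, it gave 1304 to 3910 called genes, 648 to 2020 higher and 656 to 1890 lower, beside 2684, 1370 and 1314 with all libraries. The number was 1451 without IL-1β 1, 1304 without IL-1β 2, 1355 without IL-1β 3 and 1434 without PBSL 2. Without PBSL 1 it was 3910. Each of these fits had 1 library fewer, and what moves the number was not tested.

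Libraries of the same number did not deviate together (correlations of their deviations from the group means -0.225 to 0.068), so the numbers are not taken to pair them. With the replicate block, 19, 13 and 19 genes of the set were called in the 3 comparisons, against 20, 14 and 20. The block cost the calls of ITGA6 with IL-1β (adjusted p = 0.0515), NID1 for PBSL with IL-1β against IL-1β (0.0562) and ITGAV for PBSL with IL-1β against untreated (0.0529) and changed no other call of the set.

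Equal library totals lowered the share of higher calls to 41.1% from 50.3% with IL-1β, and under it ITGAV lost its call against untreated (0.0541) and ITGB1 gained one (-0.17, 0.0419) there. Read depth is not known, so the precision of values under 1 is not known either.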
